A study of Mus musculus with 21 samples.

Results

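The genes described here are the nuclear end of the Hippo pathway and 4 of its standard readouts: the co-activators Yap1 and Wwtr1 (which encodes Taz), the DNA-binding factors Tead1, Tead2, Tead3 and Tead4, and the target genes Ctgf, Cyr61, Ankrd1 and Amotl2. They were chosen by gene symbol, in the older spelling that the expression table keeps for Ctgf (now Ccn2) and Cyr61 (now Ccn1). All 10 are among its 23983 genes. Peaks of the transcription factors T and Foxa2 near these genes are described as well.

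In Hippo signalling, a cascade of kinases phosphorylates Yap and Taz and holds them in the cytoplasm. When the cascade is inactive they enter the nucleus and bind Tead proteins, which carry the DNA-binding domain that Yap and Taz lack. Cell density, cell shape, junctions and tension of the actin cytoskeleton all feed into the cascade. In the mouse, Tead1 and Tead2 are known to be needed together to maintain the notochord, and Tead binds an enhancer of Foxa2 that acts in the node. The pathway is set largely by where Yap and Taz proteins are, which RNA levels do not measure; RNA levels of target genes are its usual readout.

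The study compared notochord progenitors (NotoP) of the mouse tail bud with mesoderm progenitors (MP) of the same region and with notochord of the trunk, and modelled the progenitors in culture. Of its 21 samples, 11 were used: 9 RNA-seq libraries and 2 ChIP-seq libraries. Every group has 1 library, so no value has an error within its group, and each difference compares 1 library with 1, without a test. The 6 embryonic libraries cross 3 tissues with 2 stages; a fit over tissues with stage as a block, which takes what differs between stages as error, was not made. The remaining 10 samples, for chromatin accessibility and histone marks, were not used.

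All cells derive from genetically modified F1G4 embryonic stem cells (C57BL/6N x SV129). Embryos grown from them carried the BAC reporters T::H2B-Venus, Noto::H2B-mCherry and Foxa2::H2B-mTurquoise. They were taken at E8.5 (Theiler stage 12) and at E9.5 (Theiler stage 16), and embryos were pooled before sorting. NotoP were positive for all reporters and came from caudal ends. MP came from the same tissue and were positive for T alone. Trunk notochord cells were positive for the same reporters as NotoP and came from the trunk. For E8.5 the paper lists a high Foxa2 gate for trunk cells and a positive one for NotoP. At both stages it lists a wider range of somite numbers for trunk. The cultured cells carried TRE::Foxa2-IRES-EGFP at the Rosa26 locus, a T BAC driving H2B-mCherry together with the transactivator irTA, and Noto::H2B-mTurquoise, and all received bFGF at 10 ng/ml and the Wnt activator CHIR99021. NMPdiff cells, a model of neuromesodermal progenitors, were sorted on day 3 as T-positive and Noto-negative. MPdiff cells were sorted by the same profile on day 4. NotoPdiff cells were sorted on day 4 as positive for both reporters, after doxycycline at 1 ng/ml from day 2 had switched on the Foxa2 transgene.

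These groups have limits as models. In NotoPdiff cells the transgene can add to the FPKM value of Foxa2, and the transactivator is driven from T regulatory sequence. The ChIP-seq cultures received the NotoPdiff treatment and were crosslinked in the dish, without sorting. A control library for peak calling is not stated.

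Expression is given in FPKM, a level scaled by transcript length and library size. FPKM keep no read counts, so the precision of a single value is unknown. A gene was called higher or lower when FPKM + 1 differed by at least 3-fold between libraries. Calls were made among the 11922 genes whose average over the 9 libraries is 1 FPKM or more. Of the 10 genes, 9 reach that average and Ankrd1 does not. Embryonic and cultured libraries were sequenced on different instruments, so ratios were formed within each set and values across the sets only stand side by side. The MP library of E8.5 has the most genes listed at 0, namely 13945 of 23983 (58.1%). Of 5735 genes with at least 5 FPKM in each of the other 5 embryonic libraries, 87 are listed at 0 there. A low value in that library is therefore weak evidence of a silent gene. The trunk notochord library of E9.5 has the next most genes listed at 0, namely 12407 (51.7%), and its zeros call for the same caution.

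The notochord markers T, Noto, Foxa2, Shh, Chrd and Nog match the labels of the notochord groups. All 6 had at least 1 FPKM in NotoP at both stages, in trunk notochord at E8.5 and in NotoPdiff. In trunk notochord at E9.5 Chrd was listed at 0. Summed, they reached 1391 and 1180 FPKM in NotoP, 1049 and 1136 FPKM in trunk notochord, but 76.1 and 163 FPKM in MP, at E8.5 and E9.5. Nearly all of the sum in MP was T, at 74.8 and 160 FPKM, and Noto was listed at 0 in both. In culture the sum was 421 FPKM in NMPdiff, of which T made 406 FPKM and where Shh was listed at 0. It was 592 FPKM in NotoPdiff, of which T made 375 FPKM, and 29.1 FPKM in MPdiff, where Noto and Shh were listed at 0.

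Markers of other cell types differed between the groups too. The 6 markers of presomitic mesoderm and its progenitors summed to 168 and 408 FPKM in MP, 224 and 156 FPKM in NotoP, and 10.6 and 4.48 FPKM in trunk notochord, at E8.5 and E9.5. Their most abundant gene over the libraries is Dll1, and Tbx6, Msgn1 and Hes7 were listed at 0 in trunk notochord at both stages. The 8 somite markers summed to 21.7 and 21.4 FPKM in NotoP, 59.4 and 38.8 FPKM in trunk notochord and 71.5 and 54.5 FPKM in MP, with Meox1 the most abundant over the libraries. The 8 neural tube markers summed to 40.5 and 30.8 FPKM in NotoP, 104 and 70.1 FPKM in trunk notochord and 14.9 and 6.56 FPKM in MP, with Irx3 the most abundant. The 8 gut markers summed to 164 and 114 FPKM in NotoP, 135 and 66.0 FPKM in trunk notochord and 47.5 and 8.08 FPKM in MP, with Apela the most abundant. So the trunk libraries differ from NotoP in more than notochord genes, and the part of these markers in any difference of the 10 genes was not tested.

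Blood markers were near absent: the 8 of them summed to at most 2.28 FPKM in any library, and Hbb-bh1 was listed at 0 in all 6 embryonic ones. Endothelial markers summed to at most 3.82 FPKM outside trunk notochord at E9.5, where Sox7 alone gave 10.9 of 12.6 FPKM and Pecam1, Cdh5 and Kdr were listed at 0. In culture, the 6 pluripotency markers summed to 300 FPKM in NMPdiff, of which Pou5f1 made 269 FPKM, against 16.1 FPKM in NotoPdiff and 16.1 FPKM in MPdiff. In bulk RNA of sorted cells, fewer cells of a type and less RNA per cell cannot be told apart.

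The co-activator RNAs were present in every library, and Yap1 was the more abundant of the pair in each. Yap1 read 46.9 FPKM at E8.5 and 62.4 FPKM at E9.5 in NotoP, 87.8 and 109 FPKM in trunk notochord, and 62.9 and 55.3 FPKM in MP. In culture it read 43.9 FPKM in NMPdiff, 57.6 FPKM in NotoPdiff and 54.1 FPKM in MPdiff. Both trunk libraries thus stood above all other embryonic libraries, by 1.87-fold over NotoP at E8.5 and 1.75-fold at E9.5, which is below the 3-fold call. At least 93.4% of all genes had a lower FPKM than Yap1 in each of the 9 libraries.

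Wwtr1 was lower and had a different order. It read 10.9 and 8.95 FPKM in NotoP, 17.6 and 13.7 FPKM in trunk notochord, and 12.2 and 9.00 FPKM in MP, at E8.5 and E9.5. In culture it read 18.5 FPKM in NMPdiff, 14.6 FPKM in NotoPdiff and 8.83 FPKM in MPdiff. Within each tissue the later stage was the lower, and in culture MPdiff was lowest, 2.09-fold below NMPdiff. Of the summed FPKM of Yap1 and Wwtr1, Yap1 made between 70.4% and 88.8%.

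Among the Tead factors Tead2 dominated in all 9 libraries, with 73.8% to 85.3% of their summed FPKM. Tead2 read 215 FPKM at E8.5 and 130 FPKM at E9.5 in NotoP, 132 and 150 FPKM in trunk notochord, and 123 and 132 FPKM in MP. In culture it read 99.7 FPKM in NMPdiff, 119 FPKM in NotoPdiff and 125 FPKM in MPdiff. NotoP at E8.5 had the highest level, 1.75-fold above MP, and the other embryonic values lay close together. Tead1, which made 10.3% to 21.5% of the family, was highest among the embryonic libraries in trunk notochord, with 30.9 and 41.2 FPKM. In NotoP it read 26.0 and 19.1 FPKM, and in MP 19.2 and 23.5 FPKM. The cultured cells had 22.3 FPKM in NMPdiff, 31.0 FPKM in NotoPdiff and 23.9 FPKM in MPdiff. The E9.5 value in trunk notochord was 2.15-fold that in NotoP.

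Tead3 and Tead4 were minor members and varied most between embryonic libraries. Tead3 read 8.47 FPKM in NotoP at E8.5 and 2.71 FPKM at E9.5, 2.52 and 0.970 FPKM in trunk notochord, and 3.18 and 1.23 FPKM in MP. The 3 cultured values were almost the same, 4.08, 3.93 and 4.38 FPKM in NMPdiff, NotoPdiff and MPdiff. In each tissue Tead3 was lower at E9.5 than at E8.5, with log2 differences of −1.35, −0.84 and −0.91 in NotoP, trunk notochord and MP, none of which reached the call. Tead4, best known from the trophectoderm, read 13.4 FPKM in trunk notochord at E8.5, 3.68 FPKM in NotoP of that stage and less than 1 FPKM in the other 4 embryonic libraries, among which the E9.5 trunk library lists it at 0. In culture it read 1.11, 2.02 and 1.74 FPKM in NMPdiff, NotoPdiff and MPdiff. The high Tead4 value is thus a property of 1 library.

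The target genes spread more widely than Yap1, Wwtr1, Tead1 and Tead2. Ctgf encodes a secreted matricellular protein, and it separated trunk notochord from every other library. It read 22.0 and 22.8 FPKM in trunk notochord, against 3.93 and 3.75 FPKM in NotoP and 1.08 and 6.28 FPKM in MP, at E8.5 and E9.5. In culture Ctgf stayed low, at 2.57 FPKM in NMPdiff, 4.84 FPKM in NotoPdiff and 1.65 FPKM in MPdiff. The trunk value was 5.60-fold the NotoP value at E8.5 and 6.06-fold at E9.5, and within trunk notochord and within NotoP the stages were nearly equal.

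Cyr61, a close relative of Ctgf in the same protein family, had another pattern. It read 59.7 FPKM at E8.5 and 17.6 FPKM at E9.5 in trunk notochord, 20.5 and 24.5 FPKM in NotoP, and 8.96 and 17.8 FPKM in MP. In culture it was highest in NotoPdiff, with 79.4 FPKM, against 37.3 FPKM in NMPdiff and 16.2 FPKM in MPdiff. So the trunk library of E8.5 stood highest in the embryo, and at E9.5 the 3 tissues lay within a narrow range.

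Amotl2 encodes a scaffold that binds Yap and holds it out of the nucleus, so it is both a target and an inhibitor. It read 38.8 and 39.7 FPKM in trunk notochord, 19.4 and 31.5 FPKM in NotoP, and 10.5 and 23.1 FPKM in MP, at E8.5 and E9.5. In culture it fell with differentiation towards mesoderm, from 54.2 FPKM in NMPdiff to 11.6 FPKM in MPdiff, and stood at 32.0 FPKM in NotoPdiff. At both stages the order was trunk notochord, NotoP, MP. Ankrd1, a nuclear protein of muscle that serves as a target in many other cells, was listed at 0 in all 6 embryonic libraries and in NotoPdiff, and read 0.102 FPKM in NMPdiff and 0.246 FPKM in MPdiff. It is the 1 target of the 4 that these cells barely express.

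**Figure D1:**
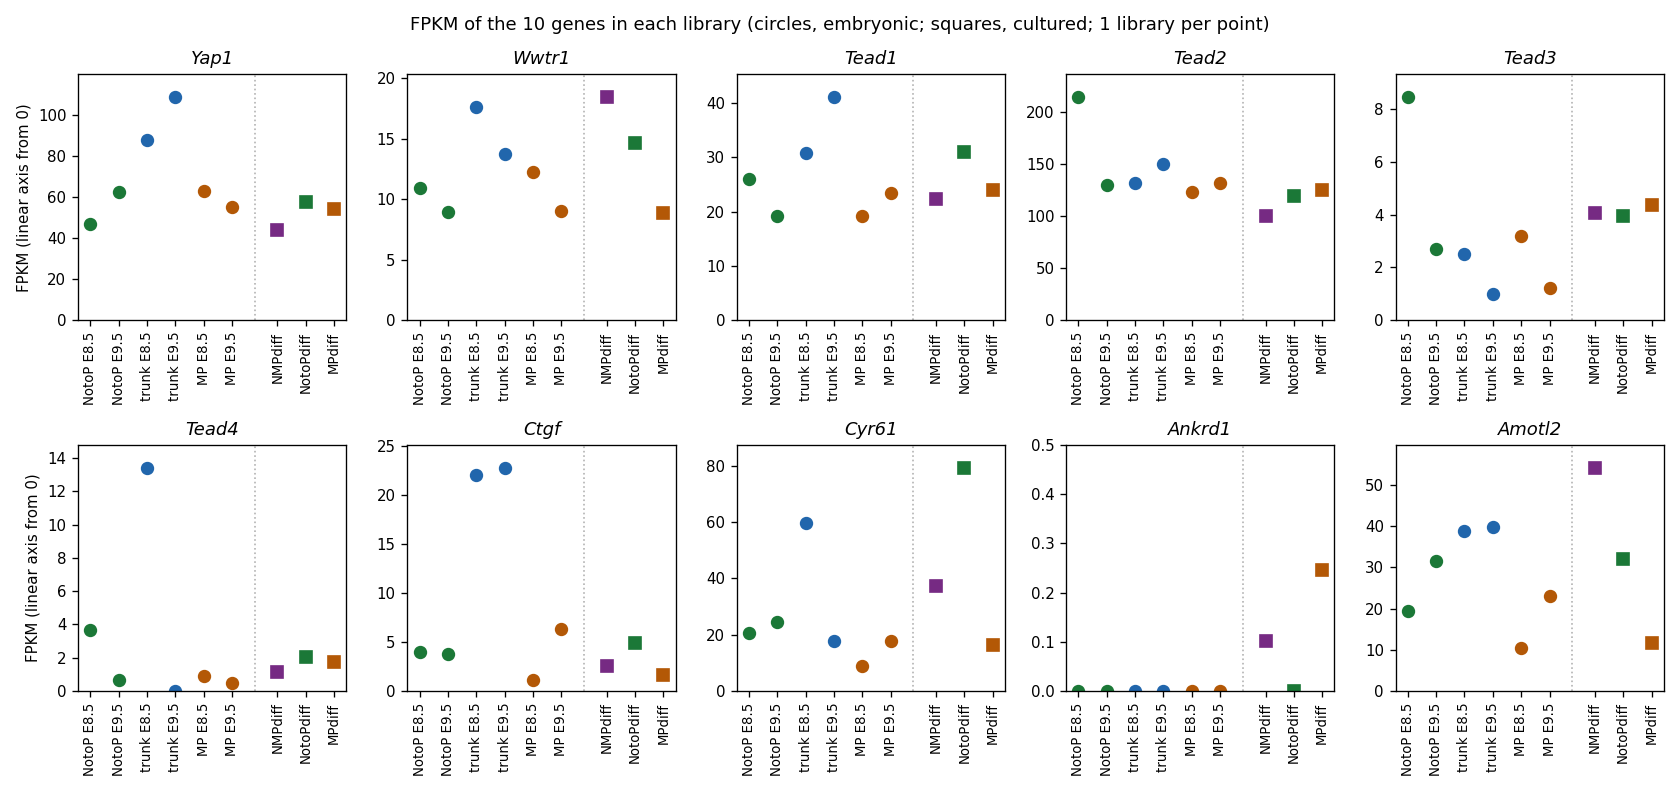
FPKM (linear vertical axis from 0, a scale of its own in each panel) of each of the 10 genes in the 9 libraries, with 1 point per library, circles for embryonic and squares for cultured cells. Ctgf reaches 22.0 and 22.8 FPKM in the trunk notochord libraries and at most 6.28 FPKM elsewhere, and Tead4 reaches 13.4 FPKM in 1 library.

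Comparing NotoP with MP asks what distinguishes progenitors of the notochord from their mesodermal neighbours. None of the 9 genes was called at E8.5, where 24% of all genes tested were (16.6% higher, 7.4% lower), and none at E9.5, where 6.84% were (4.84% higher, 2% lower). At E8.5 all 4 Tead factors and the 3 measured targets were above 0 on the log2 scale, with medians of 0.99 and 1.11 against 0.10 over all genes, while Yap1 and Wwtr1 stood at −0.42 and −0.15. At E9.5 the same medians were 0.06 and 0.43 against 0.02 over all genes, and Ctgf stood at −0.62. The E8.5 count depends on the comparator and on the value added before the ratio. Against the MP library of E9.5, Tead3 and Tead4 were called. With 0.1 FPKM added, Ctgf and Tead4 were called, at FPKM ratios of 3.63 and 4.18. With 1 FPKM added and MP of the same stage, none of the 9 genes distinguished NotoP from MP by these calls.

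Comparing trunk notochord with NotoP asks what changes as progenitors become notochord. At E8.5 Ctgf, with a log2 ratio of 2.22, and Tead4, with 1.63, were higher, 2 of 9 genes where 14.8% of all genes were called (7.37% higher, 7.39% lower). Tead4 was not called with 5 FPKM added before the ratio, and its mean is below 5 FPKM. At E9.5 Ctgf, with 2.32, was higher, 1 of 9 where 16.8% of all genes were called (7.08% higher, 9.71% lower). Both counts are near these backgrounds and say nothing about the set as a whole. Ctgf was the 1 of the 9 genes called at both stages, and the share of all genes called at both was not counted. The Ctgf ratio exceeded that of 96.6% of all genes at E8.5 and 97.1% at E9.5. Cyr61 stood at 1.50 at E8.5, just under the call, and at −0.45 at E9.5, and Tead3 stood at −1.43 at E8.5. At E8.5 the somite markers Pax3 and Tcf15 and the neural markers Nkx6-1 and Irx3 were also called higher in trunk notochord, with log2 ratios of 3.09, 2.67, 3.36 and 1.75. At E9.5 the somite marker Pax1 and the endothelial marker Sox7 were, with 13.5 and 10.9 FPKM against values listed at 0. Of the 6 mesoderm progenitor markers, Pcdh8 was called higher at E9.5, at 4.48 against 0.162 FPKM, and the other 5 were called lower at both stages. Cdx2, Fgf8 and Wnt3a and the notochord markers Noto and Chrd were also called lower at both, and Shh higher at E9.5. The gut markers Sox17 and Cdx1 were called lower at E8.5, and Trf at E9.5. The part of these markers in the higher Ctgf, Tead4 and Cyr61 was not tested.

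Comparing stages within NotoP, none of the 9 genes was called, where 7.4% of all genes were (4.12% higher, 3.28% lower). Tead4 at −1.52 and Tead3 at −1.35 lay just under the call, and both were called with 0.1 FPKM added before the ratio. In MP Ctgf was higher at E9.5, by 1.81 on the log2 scale or 5.81-fold, 1 of 9 genes where 17.6% of all were called (11.7% higher, 5.95% lower). That ratio rests on 1.08 FPKM in the MP library of E8.5, and it was not called with 5 FPKM added before the ratio. Between the same MP libraries 5 of 7 gut markers were called lower at E9.5 (Sox17, Cdx1, Foxa3, Apela and Cldn6), and so was the neural marker Irx3. The progenitor markers Msgn1, Dll3, Hes7, Fgf8 and Nkx1-2, the neural and progenitor marker Sox2 and the somite marker Tcf15 were called higher. The somite marker Meox1 read 37.6 FPKM at E8.5 and 14.3 FPKM at E9.5, below the call, and the part of these markers in the higher Ctgf was not tested. In trunk notochord Cyr61 fell by 1.71 on the log2 scale and Tead4 went from 13.4 FPKM to a value listed at 0, 2 of 9 genes where 17% of all were called (7.13% higher, 9.82% lower). With 5 FPKM added before the ratio Cyr61 was not called. In the same comparison the somite markers Tcf15 and Pax3 and the neural markers Sox3 and Nkx6-1 were called lower, at −3.68, −2.18, −3.08 and −2.76, with Tcf15 and Sox3 listed at 0 at E9.5. The somite marker Pax1 and the endothelial marker Sox7 were called higher, from values listed at 0 to 13.5 and 10.9 FPKM, while Esam, Tek and Kdr, also endothelial, went to values listed at 0. Dll3, Cdx2 and Chrd were called lower, and the part of these markers in the lower Cyr61 and Tead4 was not tested.

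The cultures ask whether induction of Foxa2 and sorting for Noto give cells like NotoP. Between NotoPdiff and MPdiff, Cyr61 was higher, with a log2 ratio of 2.23 or 4.91-fold, 1 of 9 genes where 3.6% of all genes were called (2.82% higher, 0.78% lower). Its ratio exceeded that of 98.8% of all genes. Amotl2 at 1.39 and Ctgf at 1.14 were below the call but above 96.1% and 94.0% of all genes, so that the 3 measured targets had a median of 1.39 against 0.02 over all genes. Yap1 at 0.09 and the 4 Tead factors, between −0.13 and 0.36, were nearly equal. Wwtr1 stood at 0.67, above 86.6% of all genes. Ankrd1 was listed at 0 in NotoPdiff and read 0.246 FPKM in MPdiff. Cyr61 is thus the 1 target called in this comparison. Gut markers were also called higher in NotoPdiff: Cldn6 at 126 against 3.38 FPKM, Apela at 28.9 against 1.34 FPKM and Sox17 at 7.46 against 0.545 FPKM. Their part in the higher Cyr61 was not tested.

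Between NotoPdiff and NMPdiff none of the 9 genes was called, where 3.58% of all genes were (2.35% higher, 1.23% lower). Cyr61 stood at 1.07 and Amotl2 at −0.74. Between MPdiff and NMPdiff Amotl2 fell by 2.13 on the log2 scale, 1 of 9 genes where 4.27% of all were called (1.72% higher, 2.55% lower). Cyr61 stood at −1.16. In that comparison the pluripotency markers Pou5f1 and Nanog and the gut markers Apela and Cldn6 were called lower, at −4.26, −4.23, −2.36 and −2.07, and the somite markers Meox1 and Foxc2 higher, at 3.65 and 2.81. The notochord and progenitor markers T, Foxa2, Nkx1-2 and Wnt3a were called lower too, and Cdx2, Dll1 and Hes7 higher. Their part in the lower Amotl2 was not tested. The median of the 3 measured targets was −1.16 against −0.02 over all genes. The comparisons of NotoPdiff and of NMPdiff each with MPdiff share the MPdiff library. In both, Amotl2 and Cyr61 were lowest in MPdiff.

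**Figure D2:**
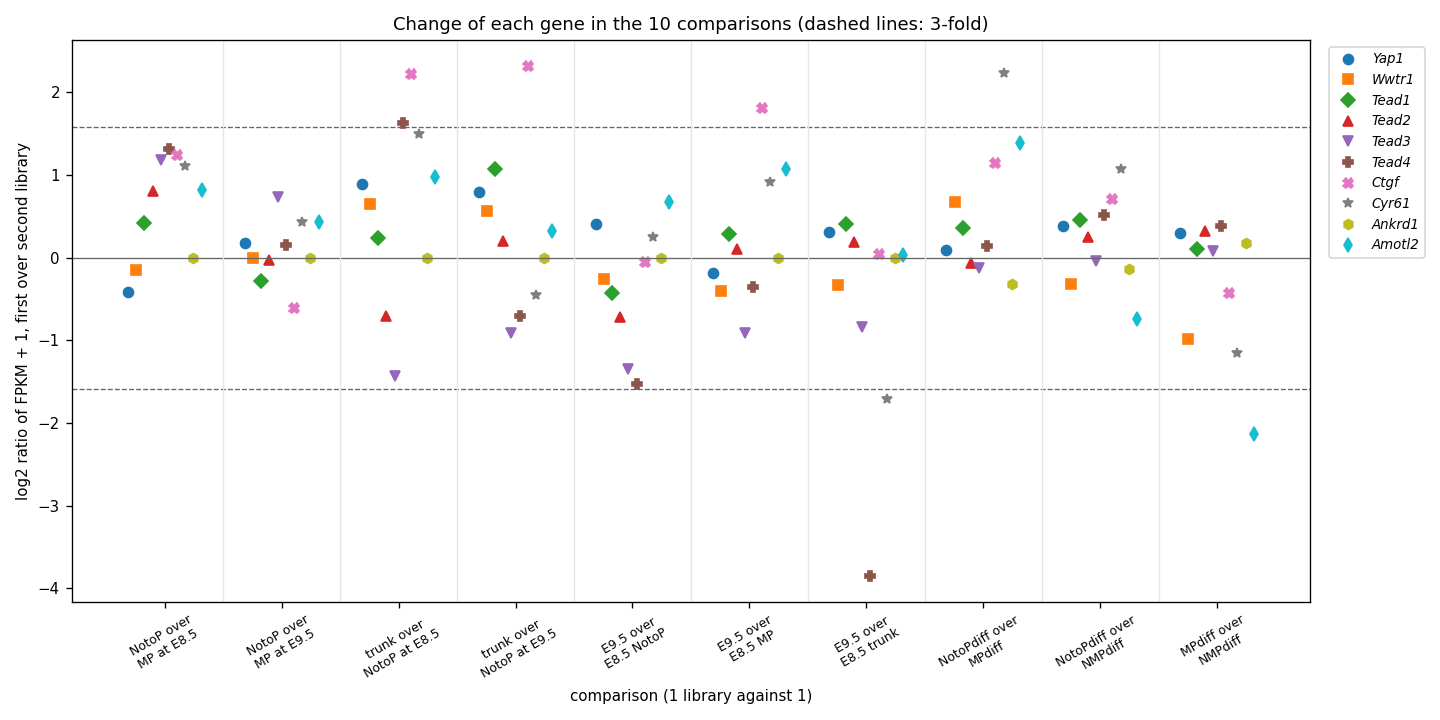
Log2 ratio of FPKM + 1 for each gene in each of the 10 comparisons, with 1 library against 1; symbols mark genes and dashed lines mark 3-fold. Ctgf lies above the upper line in 3 comparisons and Cyr61 in 1, and Tead4, whose E9.5 value in trunk notochord is listed at 0, has the lowest point.

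Likeness of pattern was measured as the mean absolute difference of log2 of FPKM + 1 over the 9 libraries, each gene centred on its own mean. A difference between the embryonic and the cultured set enters this measure and was not separated from it. The genes nearest to Ctgf were Parva at 0.28, Ypel2 at 0.28 and Casp8 at 0.29; Parva read 30.2 and 42.2 FPKM in trunk notochord and at most 11.4 FPKM elsewhere. Nearest to Cyr61 were Myl6 at 0.31, Map3k5 at 0.34 and Ccdc125 at 0.35. Nearest to Amotl2 were Tob1 at 0.19, Arntl at 0.25 and Chm at 0.26. The targets were not each other's nearest genes. Seen from Cyr61, Amotl2 ranked 355 and Ctgf 6656 among the 11922 genes. Seen from Ctgf, Yap1 ranked 738, Amotl2 806 and Cyr61 2801, so a rank depends on the gene it is seen from.

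Upstream of Yap and Taz, the 15 kinases and scaffolds of the core cassette were broadly expressed, with 14 or 15 of them at 1 FPKM or more in each library. The most abundant was Map4k4, a kinase that acts on Lats kinases, at 244 FPKM in NotoP and 78.4 FPKM in MP at E8.5. It was 1 of 4 genes called in that comparison, 2 in each direction. Wwc2 was also higher in NotoP, at 8.81 against 1.55 FPKM. Wwc1, which encodes the scaffold Kibra, was lower, at 0.853 against 22.7 FPKM, and so was Frmd6, at 2.83 against 17.3 FPKM. At E9.5 none of the 15 was called between NotoP and MP. Trunk notochord at E8.5 had more Wwc1 than NotoP, 10.6 FPKM, and less Map4k4, 65.7 FPKM, while at E9.5 none of the 15 was called. Over stages, 2 were higher and 1 lower at E9.5 in MP, 1 was higher and 1 lower in trunk notochord, and none was called in NotoP. None was called in any of the 3 comparisons of cultured cells. The shares of all genes called were 24% and 6.84% for NotoP against MP, 14.8% and 16.8% for trunk notochord against NotoP, 7.4%, 17.6% and 17% over stages in NotoP, MP and trunk notochord, and 3.58% to 4.27% in culture. The count for NotoP against MP at E8.5 is near its share, and that for trunk notochord against NotoP at E9.5 is below it; with 15 genes these differences were not tested.

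Of 12 junction, polarity and cytoplasmic partners of Yap, the most abundant over the libraries was Amot, a relative of Amotl2, with 84.2 FPKM in NotoP and 67.5 FPKM in MP at E8.5. Ptpn14, a phosphatase that binds Yap and is itself a target gene, was higher in NotoP than in MP at E8.5, at 45.5 against 8.70 FPKM, and higher in NotoPdiff than in MPdiff, at 48.3 against 12.5 FPKM. At E9.5 it read 25.8 FPKM in NotoP and 11.5 FPKM in MP, below the call. Dchs1, a cadherin that binds Fat4, was lower in NotoP than in MP at E8.5, at 1.77 against 10.5 FPKM, and higher in MPdiff than in NMPdiff, at 6.56 against 0.760 FPKM. Rassf1 was lower in trunk notochord than in NotoP at E9.5, at 5.32 against 18.97 FPKM, and Rassf8 rose in MP from a value listed at 0 to 4.75 FPKM. Of the 12 genes, 2 were thus called for NotoP against MP at E8.5, where 24% of all genes were. In 4 comparisons 1 was, where the shares were 16.8% in the trunk, 17.6% in MP, 3.6% for NotoPdiff against MPdiff and 4.27% for MPdiff against NMPdiff. In the other 5 comparisons none of the 12 was called. Ptpn14 was the 1 gene of this group called in the embryo and in culture in the same direction between notochord progenitors and MP. The embryonic call was at E8.5 alone, and the share of all genes called in both was not counted.

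The Vestigial-like proteins compete with Yap for Tead, and of the 4 genes only Vgll4 reached 1 FPKM in any library. It read 27.03 and 21.95 FPKM in NotoP, 23.9 and 18.4 FPKM in trunk notochord, and 9.92 FPKM in MP at E9.5, and it was listed at 0 in MP at E8.5. In culture it read 6.88 FPKM in NMPdiff, 19.6 FPKM in NotoPdiff and 9.97 FPKM in MPdiff. Vgll4 was called in 2 comparisons, both of which rest on that value listed at 0, and in none of the other 8. Vgll1 and Vgll2 were listed at 0 in all 9 libraries.

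A further 18 genes widely used as Yap and Taz targets, of which 17 average 1 FPKM or more, were read in the same way. Between NotoP and MP, 3 were higher and 1 lower at E8.5, where 24% of all genes were called, and 2 higher and none lower at E9.5, where 6.84% were. The 3 at E8.5 were Ptpn14, Igfbp3 and Ccdc80, the last 2 at 7.34 against 1.06 FPKM and 11.1 against 2.85 FPKM, and Axl was lower, at 0.787 against 5.40 FPKM. Between trunk notochord and NotoP, 2 were higher and 2 lower at E8.5, where 14.8% of all genes were called, and 1 higher and 4 lower at E9.5, where 16.8% were. The counts at E8.5 and E9.5 were not tested against these shares. At E8.5 Nuak2 was higher in trunk notochord, at 9.13 against 0.303 FPKM, and Gadd45a and Ccdc80 were lower. The gene that moved with Ctgf at both stages was Myof, a membrane repair protein. It was listed at 0 in NotoP at both stages and read 7.75 and 10.7 FPKM in trunk notochord. Against that, F3 and Igfbp3 were lower in trunk notochord at E9.5, at 1.27 against 7.90 FPKM and 0.973 against 6.86 FPKM, and Fjx1 and Nuak2 were listed at 0. Over stages, 2 were higher at E9.5 in NotoP, 2 in MP and 1 in trunk notochord, and 3 were lower, all in trunk notochord, where 7.4%, 17.6% and 17% of all genes were called in the 3 tissues.

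In culture, some of the same 18 genes ranged widely. Igfbp3, which encodes a binding protein for insulin-like growth factors, read 94.1 FPKM in NMPdiff, 29.8 FPKM in NotoPdiff and 6.78 FPKM in MPdiff. Nt5e, an ectonucleotidase, read 23.4, 9.45 and 1.03 FPKM in the same order. Both thus ran in the order of Amotl2. Ccdc80 ran in the opposite order, at 0.108, 0.427 and 3.67 FPKM. Tgfb2 was lowest in NMPdiff, at 0.561 FPKM against 7.16 FPKM in NotoPdiff and 4.59 FPKM in MPdiff. Between NotoPdiff and MPdiff, 3 of the genes were higher and 1 lower, where 3.6% of all genes were called, with a median of 0.53 against 0.02 over all genes. Between NotoPdiff and NMPdiff 1 was higher and 1 lower, where 3.58% of all genes were called, and between MPdiff and NMPdiff 2 were higher and 2 lower, where 4.27% were.

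Ctgf and Cyr61 also respond to serum response factor and to the stress of dissociation, so genes of those responses were read beside them. Of a list of 12 genes, Srf and 11 genes of the actin cytoskeleton that it controls, 11 pass the mean of 1 FPKM. Between NotoPdiff and MPdiff 4 were higher and none lower, where 2.82% of all genes were called higher. They were Tagln at 41.4 against 1.56 FPKM, Cnn2 at 82.6 against 10.6 FPKM, Myl9 at 15.8 against 1.12 FPKM and Acta1 at 5.39 against 0.675 FPKM. In all, 10 of 11 were above 0, and the median was 1.03 against 0.02 over all genes. Between MPdiff and NMPdiff 5 were lower, where 2.55% of all genes were, and none was above 0, with a median of −1.23 against −0.02. Tagln, Cnn2, Myl9 and Acta1 were thus called lower in MPdiff than in NotoPdiff and than in NMPdiff. Of the target genes, Cyr61 was called lower in MPdiff than in NotoPdiff alone, and Amotl2 than in NMPdiff alone. What part the actin genes and these targets have in each other was not tested. Srf itself read 28.6, 15.9 and 17.9 FPKM in NMPdiff, NotoPdiff and MPdiff.

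In the embryo the actin genes differed among themselves in direction. The most abundant, Tpm1, read 466 and 1014 FPKM in NotoP, 323 and 962 FPKM in MP, and 195 and 205 FPKM in trunk notochord. Tagln read 6.54 and 8.93 FPKM in NotoP and 13.9 and 25.5 FPKM in trunk notochord, below the call. Tpm2 read 4.03 and 4.15 FPKM in NotoP and 11.5 and 27.6 FPKM in trunk notochord, and was called higher at E9.5. Between trunk notochord and NotoP none of the 11 genes was higher and 1 was lower at E8.5, where 14.8% of all genes were called, and 1 was higher and 2 were lower at E9.5, where 16.8% were. Between NotoP and MP, 3 were higher at E8.5, all against values listed at 0, and 2 at E9.5, where 24% and 6.84% of all genes were called. Over stages, 1 was lower in NotoP, 2 were higher in MP, and 1 was higher and 1 lower in trunk notochord, where 7.4%, 17.6% and 17% were.

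Of 15 immediate early genes, 12 pass the mean. The most abundant over the libraries was Ier2, between 10.9 and 44.9 FPKM in the embryo, where the 15 summed to between 40.3 and 91.2 FPKM. In culture they summed to 263 FPKM in NMPdiff, 155 FPKM in NotoPdiff and 160 FPKM in MPdiff. Between NotoPdiff and MPdiff, where Cyr61 differed most, none of the 12 was called. Against NMPdiff, 4 were lower in NotoPdiff and 5 in MPdiff, where 1.23% and 2.55% of all genes were. Fos read 23.8 FPKM in NMPdiff, 3.58 FPKM in NotoPdiff and 7.27 FPKM in MPdiff. In trunk notochord at E9.5 Egr1, Fosb and Fos were higher than in NotoP, at 19.3, 6.30 and 9.08 FPKM against 0.419, 0.341 and 1.54 FPKM, and Junb and Ier2 were lower, 5 of 12 where 16.8% of all genes were called. At E8.5 Atf3 was higher and Junb lower, 2 of 12 where 14.8% were. Between NotoP and MP, Jun and Junb were higher at both stages, with Junb listed at 0 in MP at E8.5, and Dusp1 lower at E9.5, 2 and 3 of 12 where 24% and 6.84% of all genes were called. Over stages none was called in NotoP, 1 was higher in MP, and 3 were higher and 2 lower in trunk notochord, where 7.4%, 17.6% and 17% of all genes were. The part of a dissociation response in the levels of Cyr61 and Ctgf was not tested.

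ChIP-seq of NotoPdiff cultures gave 6875 T peaks and 22684 Foxa2 peaks. A peak was assigned to a gene when its summit lay in the gene or within 100 kb of the annotated transcription start, so a peak can belong to several genes. By that rule 6 of the 10 genes have a T peak, where 46.2% of 20410 protein-coding genes do, and 8 have a Foxa2 peak, where 75.1% do. Among genes that average 1 FPKM or more the shares are 51.9% and 81.5%. At this distance the counts of the set are close to these backgrounds. Within 50 kb, 5 genes have a T peak and 8 a Foxa2 peak, where 30.1% and 56.2% of all genes do. Counting a peak only for the gene with the nearest start, 4 and 6 do, where 20.8% and 38.7% of all genes do. How far the set stands from the background thus depends on the rule, and with 10 genes these differences were not tested. In all, 10 T peaks and 25 Foxa2 peaks lie near them, and all positions below are in mm10.

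The peaks are most numerous at Cyr61 and Amotl2. Cyr61 has 3 T peaks and 4 Foxa2 peaks, and Amotl2 has 2 T peaks and 5 Foxa2 peaks. Near the start of Cyr61, a Foxa2 peak of 7.81-fold enrichment at chr3:145650246-145650711 has its summit 423 bp upstream. At 35.1 kb upstream, a T peak of 7.30-fold at chr3:145684821-145685249 and a Foxa2 peak of 7.31-fold at chr3:145684875-145685198 overlap in intergenic DNA. For Amotl2, a T peak of 9.56-fold at chr9:102671614-102671956 overlaps a Foxa2 peak of 7.99-fold at 44.9 kb upstream. A second T peak, of 5.05-fold, lies 1.6 kb upstream of its start at chr9:102714870-102715201, and a Foxa2 peak of 11.8-fold lies in an exon, in the UTR. Both genes therefore have a site shared by both factors and a peak of 1 factor near the start.

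At Ctgf the picture differed. No T peak lies within 100 kb, and its 3 Foxa2 peaks are 46.8 kb upstream at 12.8-fold, 22.4 kb upstream at 7.09-fold and 30.8 kb downstream at 7.59-fold. The peak downstream has a CA repeat of the kind described below near its summit, and Cyr61 and Amotl2 each have such a Foxa2 peak too. The peaks upstream of Ctgf lack a run of that length, but their windows are rich in the same letters. In them 50% and 48.5% of steps from base to base are CA, AC, TG or GT, against 72.5% downstream. Of their bases, 86.1% and 62.2% are marked as repeats (soft-masked) in the reference. What all these peaks are was not tested. Ankrd1 has the strongest T peak of the set, at chr19:36110939-36111383, with a 13.7-fold enrichment at or above that of 88.3% of all T peaks. It lies 9.0 kb downstream of the start of a gene whose RNA was listed at 0 in NotoPdiff, and Ankrd1 has no Foxa2 peak.

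**Figure D3:**
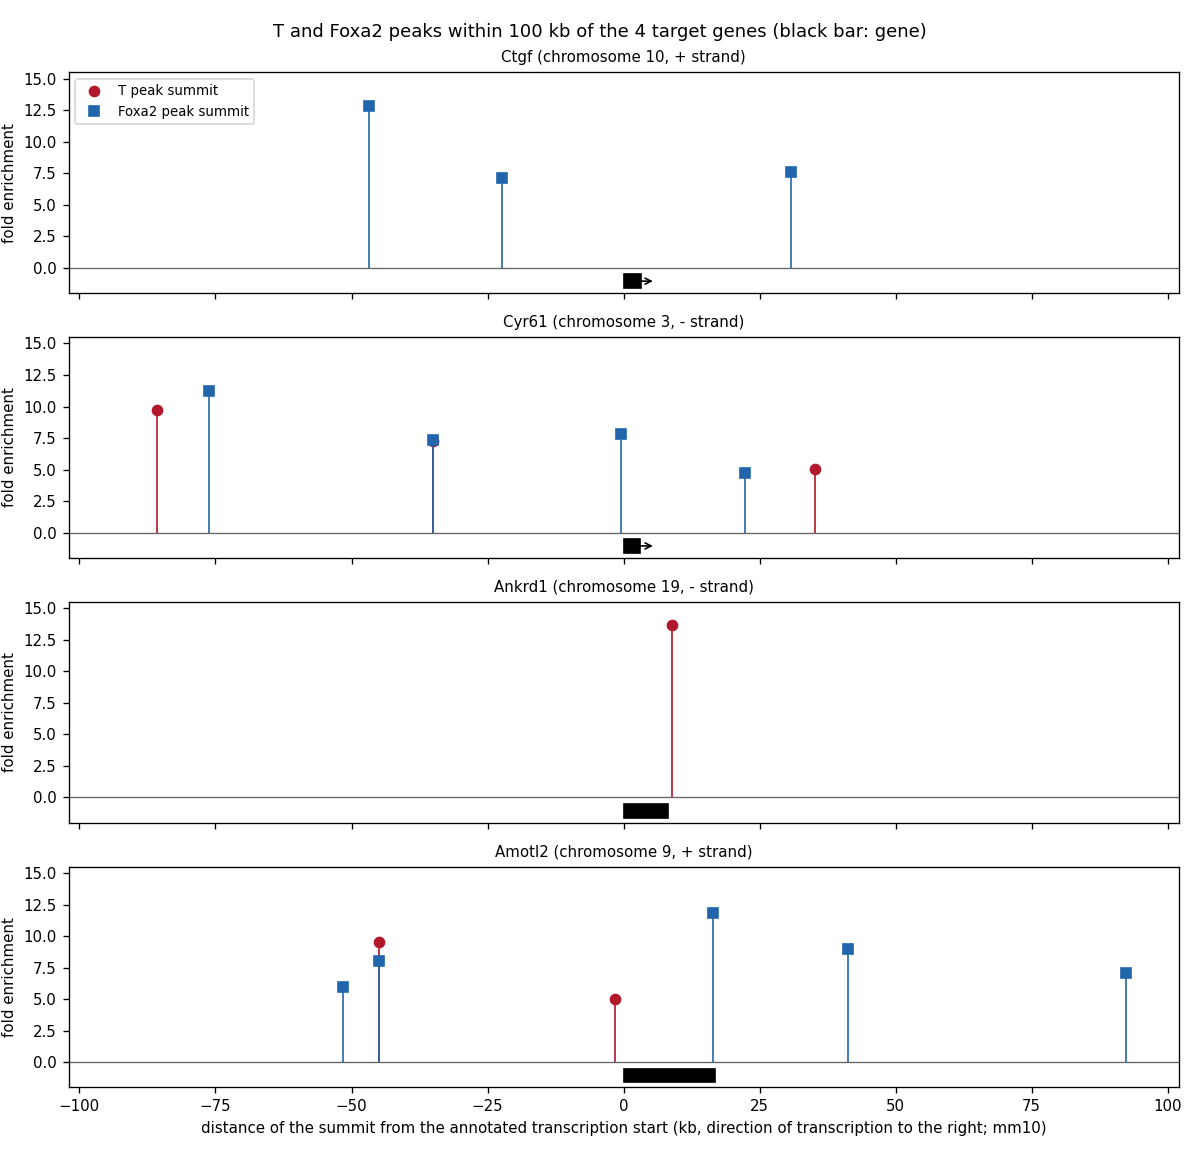
T peaks (red circles) and Foxa2 peaks (blue squares) within 100 kb of the transcription starts of the 4 target genes, by distance of the summit from the start (kb) and fold enrichment; the black bar is the gene. Cyr61 and Amotl2 each have 1 site where both factors overlap, Ctgf has 3 Foxa2 peaks and no T peak, and Ankrd1 has 1 T peak of 13.7-fold.

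Among the factors themselves, Tead1 has a shared site in an intron, where a T peak of 6.48-fold at chr7:112745080-112745759 overlaps a Foxa2 peak of 10.9-fold at chr7:112745008-112745532. Tead1 has a further T peak and 2 further Foxa2 peaks. Tead2, the most abundant, has 1 T peak of 4.19-fold, at or above 4.9% of all T peaks, 86.8 kb upstream, and no Foxa2 peak. Tead3 has 5 Foxa2 peaks, all of which lie nearer to the start of another gene, and Tead4 has a Foxa2 peak of 11.3-fold in an intron at chr6:128281633-128282224. Yap1 has 1 T peak, of 6.73-fold, 19.9 kb upstream in an intron of Cfap300, and 3 Foxa2 peaks, of which 1 of 3.50-fold is in its own intron. Wwtr1 has 1 Foxa2 peak of 4.80-fold in an intron, with a CA repeat of the kind described below near its summit. The most abundant factor, Tead2, thus has a single peak from the weak end of the T list.

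In the wider pathway, where the shares over all protein-coding genes are again 46.2% for T and 75.1% for Foxa2, 7 of the 15 kinases and scaffolds have a T peak and 12 a Foxa2 peak. Of the 12 junction and polarity partners 9 and 10 do, of the 4 Vestigial-like genes 2 and 4, and of the 18 further targets 10 and 18. Ptpn14 alone has 6 T peaks and 5 Foxa2 peaks, and Vgll4 has 5 and 3. Of the 12 actin genes 7 have a T peak and 6 a Foxa2 peak, and of the 15 immediate early genes 9 and 14.

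The core letters of the Tead motif, GGAATG on either strand, were searched within 50 bp of each summit and at positions 10 kb to either side. They occur at 465 T peaks, which is 6.77% against 5.50% of the positions 10 kb away. With a following T, GGAATGT occurs at 3.00% against 1.32%. At Foxa2 peaks GGAATG occurs at 761, which is 3.36% against 5.26%, and GGAATGT at 1.41% against 1.19%. At Foxa2 peaks without a CA repeat of the kind described below, GGAATG occurs at 4.03% against 5.05% and GGAATGT at 1.64% against 1.15%. Summits of T peaks have 46.8% G and C against 43.3% away from them, and those of Foxa2 peaks 39.5% against 42.6%. The part of base composition and of the repeats in the motif shares was not tested. As a measure of what a factor's own motif gives, the T letters TCACACCT occur at 2.97% of T peaks against 0.393%, and the forkhead letters TGTTTAC or TGTTTGC at 17.9% of Foxa2 peaks against 3.51%. The longer Tead motif was thus about as frequent at T peaks as the T letters themselves, over a higher background. Every GGAATGT is also a GGAATG.

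Near the 10 genes, 1 of 10 T peaks and none of 25 Foxa2 peaks have GGAATG within 50 bp of the summit. The exception is the T peak upstream of Yap1. The windows below are each of 201 bases around a summit on the plus strand of mm10. They are shown because they carry motifs at that peak, at shared sites or near a start. Capitals mark the Tead, T and forkhead letters given above, or their reverse complements. The first is the T peak upstream of Yap1, chr9:8024422-8024622. The second is the T peak at the shared site of Cyr61, chr3:145684932-145685132, with the T letters near the summit and forkhead letters further out. The third is the Foxa2 peak next to the start of Cyr61, chr3:145650304-145650504, with forkhead letters 2 times. The fourth is the Foxa2 peak at the shared site in Tead1, chr7:112745107-112745307, with the T letters within 50 bp and GGAATG at the edge of that distance.
Yap1 T: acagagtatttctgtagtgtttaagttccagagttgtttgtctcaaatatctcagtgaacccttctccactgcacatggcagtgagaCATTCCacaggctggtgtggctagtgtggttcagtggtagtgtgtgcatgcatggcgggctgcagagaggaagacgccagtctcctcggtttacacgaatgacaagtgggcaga
Cyr61 shared T: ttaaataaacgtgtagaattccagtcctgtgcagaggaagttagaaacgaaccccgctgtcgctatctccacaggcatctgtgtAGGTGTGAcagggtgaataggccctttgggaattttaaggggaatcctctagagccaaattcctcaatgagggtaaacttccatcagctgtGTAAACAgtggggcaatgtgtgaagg
Cyr61 start Foxa2: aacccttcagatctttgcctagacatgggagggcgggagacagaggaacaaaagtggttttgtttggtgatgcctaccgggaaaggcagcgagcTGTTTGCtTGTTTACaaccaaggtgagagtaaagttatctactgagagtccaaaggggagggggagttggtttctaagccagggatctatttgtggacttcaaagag
Tead1 shared Foxa2: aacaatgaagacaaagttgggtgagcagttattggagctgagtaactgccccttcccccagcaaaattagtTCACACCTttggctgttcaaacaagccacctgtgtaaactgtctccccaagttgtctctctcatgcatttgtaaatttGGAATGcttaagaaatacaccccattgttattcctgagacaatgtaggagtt

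Promoter sequences of RefSeq (GRCm38.p6), 250 bases before to 50 after each start, cover 7 of the 10 genes with 10 windows; Tead1, Tead4 and Ctgf have none. GGAATG occurs in 8 of the 10 windows and at 6 of the 7 genes, whereas 14.7% of all 32851 windows and 16.6% of 27025 genes have it. Its first base lies at −141 from the start in Yap1, at −103 in Cyr61 and at −65 in Amotl2. Wwtr1 has it at −136 and −170 from 2 starts, which is the same site, and Ankrd1 has it at −210 and −123. In Tead3 it lies at −182 from 1 start, and 3 matches lie around another, and Tead2 lacks it. These starts are those of the promoter sequences, and in Amotl2 and Ankrd1 they lie inside the gene as annotated for the peaks. Of the 250 bases before the start, 136 in Amotl2, 209 in the Tead3 window with 3 matches and all 250 in Ankrd1 are annotated as UTR. No T or Foxa2 peak overlaps these windows. Such a match is a stretch of letters and not evidence of binding. The 250 bases before the start are shown for Yap1, chr9:8004597-8004846, and for Cyr61, chr3:145649986-145650235, both on the minus strand, as examples of a co-activator and a target. Capitals mark GGAATG or its reverse complement.
Yap1 promoter: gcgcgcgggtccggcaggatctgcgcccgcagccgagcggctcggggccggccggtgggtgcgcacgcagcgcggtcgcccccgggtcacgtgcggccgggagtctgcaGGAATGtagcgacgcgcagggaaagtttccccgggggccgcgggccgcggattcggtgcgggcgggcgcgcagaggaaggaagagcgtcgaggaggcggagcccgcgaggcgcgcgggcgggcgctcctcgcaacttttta
Cyr61 promoter: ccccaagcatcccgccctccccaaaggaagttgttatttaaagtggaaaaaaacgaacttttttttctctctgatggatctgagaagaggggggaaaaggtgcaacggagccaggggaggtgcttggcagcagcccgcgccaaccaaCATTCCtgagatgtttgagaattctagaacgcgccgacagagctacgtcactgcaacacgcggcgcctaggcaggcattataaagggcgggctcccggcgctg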

How the data were processed

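The authors aligned RNA-seq reads to mm10 with TopHat2 2.1.1 and Bowtie 1.2.2 and deposited FPKM from Cufflinks 2.2.1. Their ChIP-seq alignment used Bowtie 1.3.1, and the authors called peaks with MACS3 3.0.0b1. The deposited lists give a score, a fold enrichment at the summit (a ratio), −log10 of p and q, and the summit offset. The p and the score were not used. All 9 columns of the FPKM table were used and 0 were left unmapped.

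The 10 genes and all other lists were chosen with earlier results of these data known. Named genes are the 10 members, the most abundant gene of each other list, at most 5 called genes of a list per comparison, and the 3 nearest genes by pattern. Other names, chosen after their values were seen, are Srf, Foxa2 with its peaks, and marker genes listed at 0. Peaks were placed with GENCODE M21, coordinates count from 1, and 756 of 20410 genes, Ctgf and Cyr61 among them, were matched by an older symbol. In all, 75 alternatives chosen before and 14 chosen after seeing the data changed the pseudocount, fold, filter, scaling, comparator, q, distance, motif and search window. The calculation was tested on simulated data. Tools were Python 3.11.15, pandas 2.3.3, numpy 2.4.6, pysam 0.24.0, samtools 1.23.1 and matplotlib 3.10.9.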

Additional observations from a re-analysis of the deposited data

Results flagged for a closer look

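Listed here are changes with opposite signs in different tissues or stages of which at least 1 was called. Tead4 was higher in trunk notochord than in NotoP at E8.5, by 1.63 on the log2 scale, and stood at −0.70 at E9.5, where trunk notochord is listed at 0. From E8.5 to E9.5, Cyr61 stood at 0.25 in NotoP and 0.92 in MP but at −1.71 in trunk notochord. Over the same interval Ctgf stood at −0.05 in NotoP and at 1.81 in MP. Each value compares 1 library with 1, and these differences between tissues and stages were not tested.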

How the results depend on the processing

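Of 89 alternative values for the counts, 67 stayed within 1.5 times the reported count and 22 moved. In E8.5 NotoP against MP (0 called), a pseudocount of 0.1 gave 2, a fold of 2 gave 4 and the E9.5 MP comparator gave 2. In E8.5 trunk notochord against NotoP (2), a pseudocount of 5 gave 1, a fold of 2 gave 4 and a mean of at least 5 FPKM gave 1. At E9.5 (1), a pseudocount of 0.1 gave 2 and a fold of 2 gave 2. Between stages, NotoP (0) gave 2 with a pseudocount of 0.1 and 2 with a fold of 2. MP (1) gave 0 with a pseudocount of 5 and 2 with a fold of 2. Trunk notochord (2) gave 1 with a pseudocount of 5, 1 with a mean of at least 5 FPKM and 1 without genes listed at 0, an alternative chosen after seeing the data. A fold of 2 gave 3 for NotoPdiff against MPdiff (1), 1 for NotoPdiff against NMPdiff (0) and 2 for MPdiff against NMPdiff (1). The higher means and the omission of genes listed at 0 remove Tead4 by construction, and a fold of 2 is a lower bar; for the others the cause was not tested. T peaks with GGAATG (465) became 964 within 100 bp and 206 for GGAATGT; Foxa2 peaks (761) became 1685 and 320, since a wider window holds more matches and a longer motif fewer. No filter, rescaling of libraries, a q of at most 0.001, distances of 50 or 200 kb, the nearest start, and leaving out peaks with a CA repeat (chosen after seeing the data) moved no count. For single genes, 384 of 410 values kept their side of the fold, 26 did not, and 0 reversed. Replicate numbers give no pairing, since every group has only replicate 1. NotoP and MP of a stage came from the same tissue, and the libraries share stages. A fit over the 3 tissues with stage as a block could be made and was not. No library was left out, since each group has 1. With FPKM alone, the counting error of low values such as those of Tead3, Tead4 and Ctgf is unknown.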

Other observations

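The Foxa2 gene, which has a known Tead-dependent enhancer of the node, holds 5 T peaks and 6 Foxa2 peaks by the distance rule. The strongest are a T peak of 18.7-fold 13.5 kb upstream of its start, at chr2:148060149-148060701, and a Foxa2 peak of 16.6-fold 62.4 kb upstream, at chr2:148109087-148109614, with a CA repeat of the kind described below near its summit. A T peak of 7.24-fold at chr2:148046311-148047038 and a Foxa2 peak of 8.67-fold at chr2:148046587-148047091 overlap at the start of the gene. Of its 5 T peaks, that at the start is the 1 with the longer Tead motif near the summit, 36 bp from it. A stretch of 40 bases there, chr2:148046766-148046805 on the plus strand, is shown because it carries those letters, in capitals as their reverse complement.
Foxa2 start: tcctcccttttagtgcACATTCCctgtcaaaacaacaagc

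Repeats of CA stood out in the windows around Foxa2 summits near Ctgf, Cyr61 and Amotl2, and were counted after the windows had been seen. A run of at least 6 CA, on either strand within 100 bp of the summit, occurs at 6185 of 22680 Foxa2 peaks (27.3%), against 3.60% of positions 10 kb away. At T peaks it occurs at 72 of 6871 (1.05%) against 3.51%. Foxa2 peaks that overlap a T peak have it in 3.89% of cases and the others in 28.8%. The median fold enrichment was 7.62 with the repeat and 7.00 without, and among the 10% of Foxa2 peaks with the largest enrichment the share was 31.5%. Near the 10 genes, 6 of 25 Foxa2 windows and 0 of 10 T windows hold one, those 6 at Amotl2, Ctgf, Cyr61, Tead1, Wwtr1 and Yap1. Without peaks that hold such a run 7 of the 10 genes have a Foxa2 peak, where 67% of all genes do. These counts pass over windows that are rich in the same letters but lack a run of 6, such as those upstream of Ctgf. In the Foxa2 windows 51.6 kb upstream and 41.2 kb downstream of the Amotl2 start, 60% and 50.5% of steps are CA, AC, TG or GT. What these peaks are was not tested.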
